A study of Malus domestica with 15 samples.

Results

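The skin of untreated apples (Malus domestica) that had spent 2 months in cold storage was set against the skin of fruit sampled at harvest. The stored group is T2_CTRL and the harvest group T0 in the sample titles, each with 3 of the 15 samples of the series, and these 6 samples were chosen by their titles. Neither group received 1-methylcyclopropene (1-MCP), a gas that occupies ethylene receptors and keeps them from responding to ethylene. Of the other 3 groups, T2+7_CTRL was control fruit after 2 months of cold and 7 days of shelf life. T2_MCP and T2+7_MCP were fruit treated with 0.7 µl/L 1-MCP. They were sampled after 2 months of cold storage and after the same shelf life, respectively. All groups were fruit exocarp, the outer skin, and the series title names superficial scald, a browning of the skin of stored apples. The labels name neither cultivar nor storage temperature, and no group was stored warm, so cold and storage time cannot be told apart.

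Apple is a climacteric fruit, in which ripening goes with a burst of ethylene that drives its own synthesis. Ethylene signalling in turn switches on genes for softening, aroma and colour, and cold storage slows these steps without stopping them. In the skin, stored fruit also build up the terpene alpha-farnesene, whose oxidation products are a long-held candidate for the damage seen as scald. The identifiers in the table are apple gene models (MDP numbers) and assembled loci (CUFF numbers). RefSeq's apple gene table held none of the 63541 gene models, so no locus below carries a gene name or a role. Markers of skin or of other fruit tissues could not be read for the same reason. No sequence is printed, because the files used here pair none with these identifiers.

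The unit is FPKM, which counts sequenced fragments relative to transcript length and to all mapped fragments, with 1 value per group. The 3 samples of a group are called biological replicates in the labels, but their spread is not in the table, so no difference below has a test, an SD or a replicate check. A difference is given as log2(FPKM + 1) in stored control fruit minus log2(FPKM + 1) at harvest. Loci were analysed when no group was listed at 0 and the mean over the 5 groups was at least 1 FPKM, which held for 42287 of 80965 loci. A locus counts as higher or lower when its difference is at least 1 in size, a criterion of size that says nothing of significance. In whole skin, fewer cells of a type and less RNA per cell cannot be told apart.

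Stored control fruit had 2576 higher and 5454 lower loci, set against harvest. The background for these counts is the whole analysed table, of which 19.0% differed in either direction, 6.09% upward and 12.9% downward. The median difference over all loci was -0.15, and the quartiles lay at -0.59 and 0.24. The 5th and 95th percentiles were -1.68 and 1.15. When each column was divided by its 75th percentile the median was -0.01 and the counts were 3201 higher and 4391 lower, so the excess of lower loci shrank but kept its direction. With quantile normalization, which gives each column one distribution, they were 3445 and 4169. The median level in the analysed loci was 8.10 FPKM in stored control fruit and 9.43 FPKM at harvest.

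**Figure D1:**
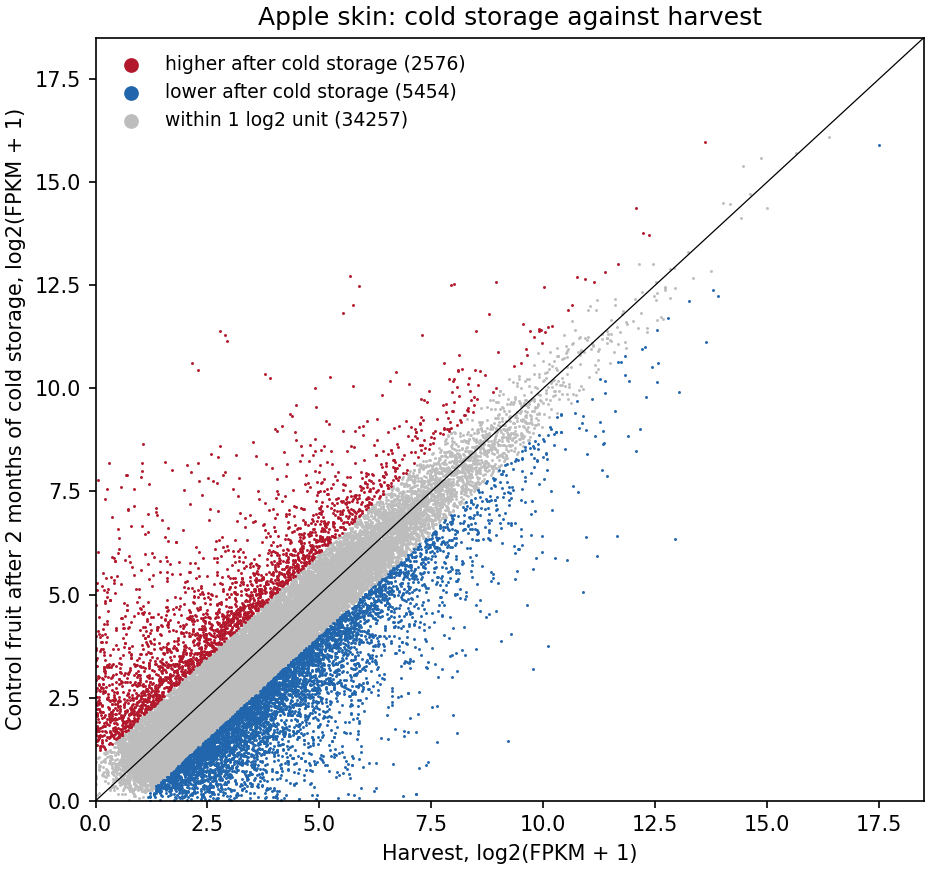
Each point is 1 of 42287 loci, with log2(FPKM + 1) in control fruit after cold storage on the y axis and at harvest on the x axis. Red points are the 2576 higher loci, blue points the 5454 lower loci, grey points lie within 1 log2 unit, and the line marks equal levels.

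The balance between the directions turned with the size of the difference. At a minimum of 2 log2 units 768 loci were higher and 1438 lower, and at 3 units 306 were higher and 425 lower. At 4 units the higher loci outnumbered the lower ones, by 146 to 132, and at 5 units by 77 to 40. At 6 units there were 32 higher and 12 lower loci, and at 7 units 15 and 1. All 5 loci past 8 units were higher. Under each scaling no locus was lower past 8 units, but this one-sidedness depended on other settings. Past 8 units there were 17 higher and 8 lower loci with a pseudocount of 0.1 FPKM, and 13 and 7 with loci listed at 0 kept. The step at which the balance turned depended on the processing. It was reached at 3 units with trimmed mean scaling (364 higher, 359 lower), quantile normalization (349 and 344) or a pseudocount of 5 FPKM (157 and 155), and only at 5 units with a pseudocount of 0.1 FPKM (162 and 129, after 294 and 341 at 4 units). With quantile normalization the higher loci were also the more numerous at 0.5 units (9067 and 8889), though not at 1 or 2 units, so there the balance turned more than once. From 5 units upward the higher loci were the more numerous under each of the 3 scalings, with both other pseudocounts at the steps that held any locus, and with loci listed at 0 kept.

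**Figure D2:**
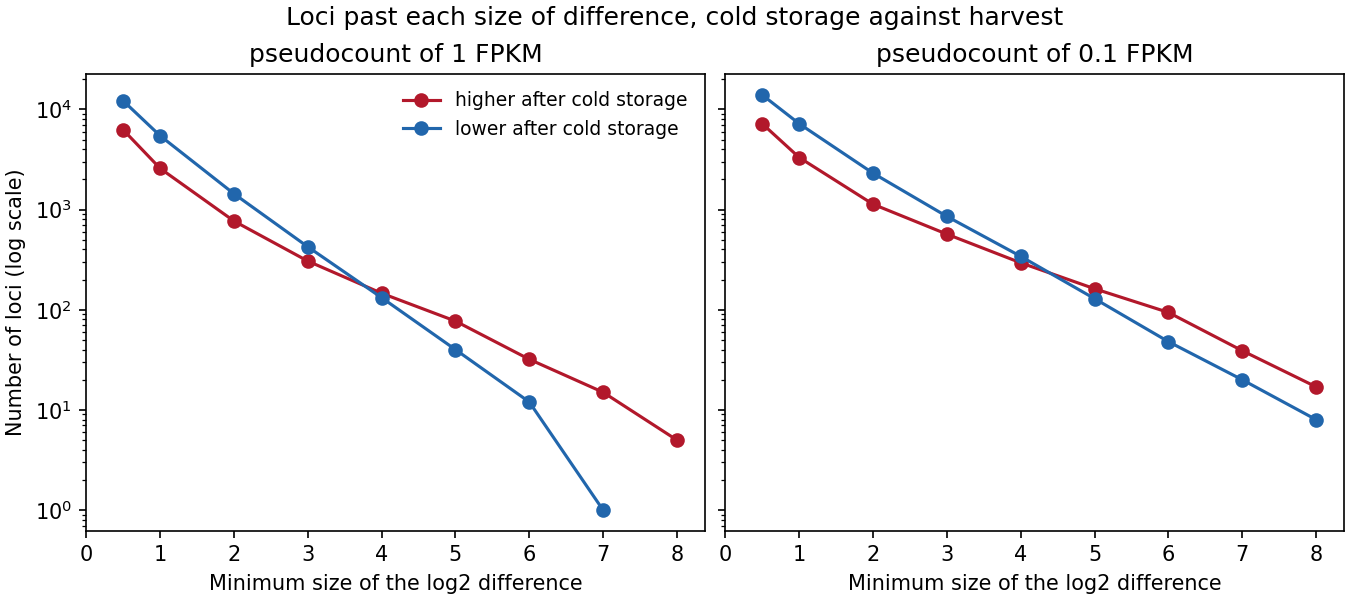
The number of loci higher (red) and lower (blue) after cold storage is shown on a log axis against the minimum size of the log2 difference, with a pseudocount of 1 FPKM on the left and 0.1 FPKM on the right. The lines cross between 3 and 4 units on the left (146 against 132 at 4 units) and between 4 and 5 units on the right (162 against 129 at 5 units).

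The largest positive difference belonged to CUFF.25825, an assembled locus that carries gene model MDP0000199152. It stood at 2696 FPKM in stored control fruit and at 5.86 FPKM at harvest, a ratio of 460 and a log2 difference of 8.62. After the 7 days of shelf life control fruit still held it at 2085 FPKM. Its 1-MCP values were 21.1 FPKM at the end of cold and 27.8 FPKM with shelf life. The control groups after storage thus lay far above the other 3 groups.

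CUFF.10970, which carries MDP0000121897, came next with 1557 FPKM in stored control fruit and 3.46 FPKM at harvest (log2 difference 8.45). After shelf life it reached 2053 FPKM in control fruit. Fruit given 1-MCP had low values at both times, 7.13 FPKM after cold storage and 5.19 FPKM after shelf life. As at the first locus, the 2 stored control columns were high and the other 3 low.

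In the other direction MDP0000292266, a gene model without an assembled locus, was at 1.71 FPKM in stored control fruit and 589 FPKM at harvest (log2 difference -7.76). Shelf life left 0.278 FPKM in control fruit. With 1-MCP the values were 48.1 FPKM after cold storage and 10.7 FPKM after shelf life. Every stored group therefore lay below harvest, and both 1-MCP values lay above both control values.

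MDP0000256575 was at 0.127 FPKM in stored control fruit and 141 FPKM at harvest (log2 difference -6.98). After shelf life the control value was 0.0416 FPKM. The 1-MCP values were 11.8 FPKM after cold storage and 2.76 FPKM after shelf life, again between the control and harvest values. Another gene model has the same value in all 5 columns, so this profile stands in the table more than once and the reads behind it cannot be assigned to either model. In all, 852 analysed loci share their 5 values with at least 1 other locus, of which 76 were higher and 133 lower. Over all analysed loci 6.09% were higher and 12.9% lower.

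The 10 most positive differences, taken over loci that reached 5 FPKM in stored control fruit or at harvest, had much in common across groups. Their levels ran from 186 to 2696 FPKM in stored control fruit and from 0.0320 to 6.69 FPKM at harvest. Under 1-MCP they lay between 0.753 and 21.1 FPKM when cold storage ended. After shelf life 9 of the 10 were between 182 and 4894 FPKM in control fruit. The exception, at rank 8, is an unannotated locus that was at 402 FPKM after cold storage and 4.64 FPKM after shelf life in control fruit. Its harvest value was 1.10 FPKM, and its 1-MCP values were 20.4 FPKM after cold storage and 0.418 FPKM after shelf life.

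The 10 loci with the largest negative difference were less alike, though those at ranks 2 and 3 have the same 5 values and count 1 profile more than once. They ran from 0.0878 to 80.5 FPKM in stored control fruit and from 115 to 7827 FPKM at harvest. With 1-MCP and cold storage 9 of them lay between 10.7 and 1101 FPKM. The other one, at rank 4, had 0.0238 FPKM there and 0.0878 FPKM in stored control fruit, against 115 FPKM at harvest. The locus at rank 5 was the most abundant of these 10 at harvest. It stood at 80.5 FPKM in stored control fruit and at 7827 FPKM at harvest, while fruit given 1-MCP had 1101 FPKM after cold storage and 8443 FPKM after shelf life.

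Few loci passed between near absence and a clear level. From below 1 FPKM at harvest, 110 loci stood at 10 FPKM or more in stored control fruit, and 161 loci were below 1 FPKM in stored control fruit after at least 10 FPKM at harvest. With 75th percentile scaling these were 131 and 138, and with quantile normalization 138 and 116, so which was the larger turned with the scaling. At the higher bar of 100 FPKM there were 12 loci in the first set and 6 in the second. The 12 had a median of 187 FPKM in stored control fruit and 0.546 FPKM at harvest. Elsewhere their medians were 264 FPKM with shelf life in control fruit, and with 1-MCP 1.67 FPKM after cold storage and 1.28 FPKM after shelf life. Gene models without an assembled locus made up 54 of the 110 and 80 of the 161, though they are 6801 of the 42287 loci.

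The higher and lower loci were then followed through all 5 groups. Both sets were chosen on the stored control and harvest columns, so their values there are a description. The higher loci had a median of 22.1 FPKM in stored control fruit and 5.22 FPKM at harvest. After shelf life the median of the same loci was 17.5 FPKM in control fruit. With 1-MCP their median was 7.98 FPKM after cold storage and 5.91 FPKM after shelf life, nearer to the harvest median than to those of the control groups. For the lower loci the median was 3.90 FPKM in stored control fruit and 16.0 FPKM at harvest. Control fruit had a median of 3.54 FPKM after shelf life. The 1-MCP medians were 8.83 FPKM after cold storage and 8.46 FPKM after shelf life, between the control and harvest medians.

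**Figure D3:**
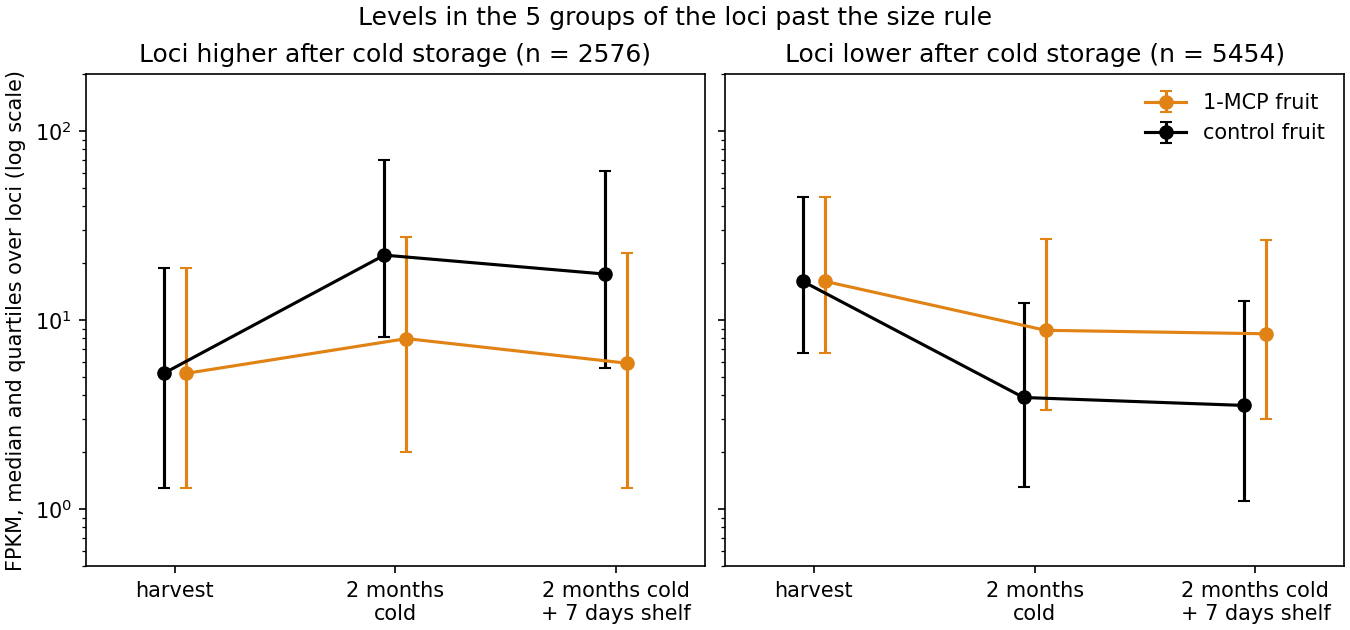
Points are medians and bars the quartiles of FPKM (log axis) over the 2576 higher loci (left) and the 5454 lower loci (right) at harvest and at the 2 later times, for fruit given 1-MCP (orange) and control fruit (black), which share the harvest value. Medians of 1-MCP fruit run between 5.91 and 8.83 FPKM in both sets, while those of stored control fruit are 22.1 and 17.5 FPKM on the left and 3.90 and 3.54 FPKM on the right.

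Loci with larger cold storage differences were followed in the same way. The gap between stored control fruit and harvest is set by that choice, so nothing is read from its growth. The 146 loci higher by at least 4 units had a median of 128 FPKM in stored control fruit and 1.45 FPKM at harvest. With shelf life the control median was 142 FPKM. Fruit given 1-MCP had medians of 4.04 FPKM after cold storage and 1.85 FPKM after shelf life. The 132 loci lower by at least 4 units had a median of 1.25 FPKM in stored control fruit and 70.6 FPKM at harvest. Their control median after shelf life was 0.760 FPKM, and in 1-MCP fruit the medians were 12.6 and 10.7 FPKM.

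Whether the same loci differ in columns that did not choose them was asked of 1-MCP against control fruit after shelf life, a comparison that uses neither the cold storage column of control fruit nor harvest. Of the 2576 loci higher after cold storage, 1311 (50.9%) were lower with 1-MCP after shelf life, where 7.35% of all loci were (22.0% differed in either direction), and 161 (6.25%) were higher, where 14.6% of all loci were. Their median 1-MCP difference was -1.02, beside 0.28 for all loci. Of the 5454 loci lower after cold storage, 2454 (45.0%) were higher with 1-MCP and 177 (3.25%) lower, and their median was 0.90. The signs of both medians were the same under each scaling. With 75th percentile scaling 49.9% of the higher loci were lower with 1-MCP and 43.3% of the lower loci were higher with it, while over all loci the split was 4856 higher and 3749 lower. The background split as deposited was 6178 higher and 3110 lower.

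This opposition grew with the size of the cold storage difference. Among loci higher by at least 2 units 75.1% were lower with 1-MCP after shelf life, at 3 units 85.9%, at 4 units 91.8%, and at 5 units 74 of 77. The median 1-MCP difference was -2.65 at 2 units, -3.96 at 3, -5.04 at 4 and -5.91 at 5. On the lower side the share that was higher with 1-MCP was 60.6% at 2 units, 70.4% at 3, 72.0% at 4 and 31 of 40 at 5. The medians there were smaller in size, at 1.39, 1.78, 1.94 and 2.23. Across the 42287 loci, which are not independent and share the scaling of each column, Pearson's r between the differences was -0.55 and Spearman's rho -0.44. These coefficients describe loci within 4 columns and carry no test.

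**Figure D4:**
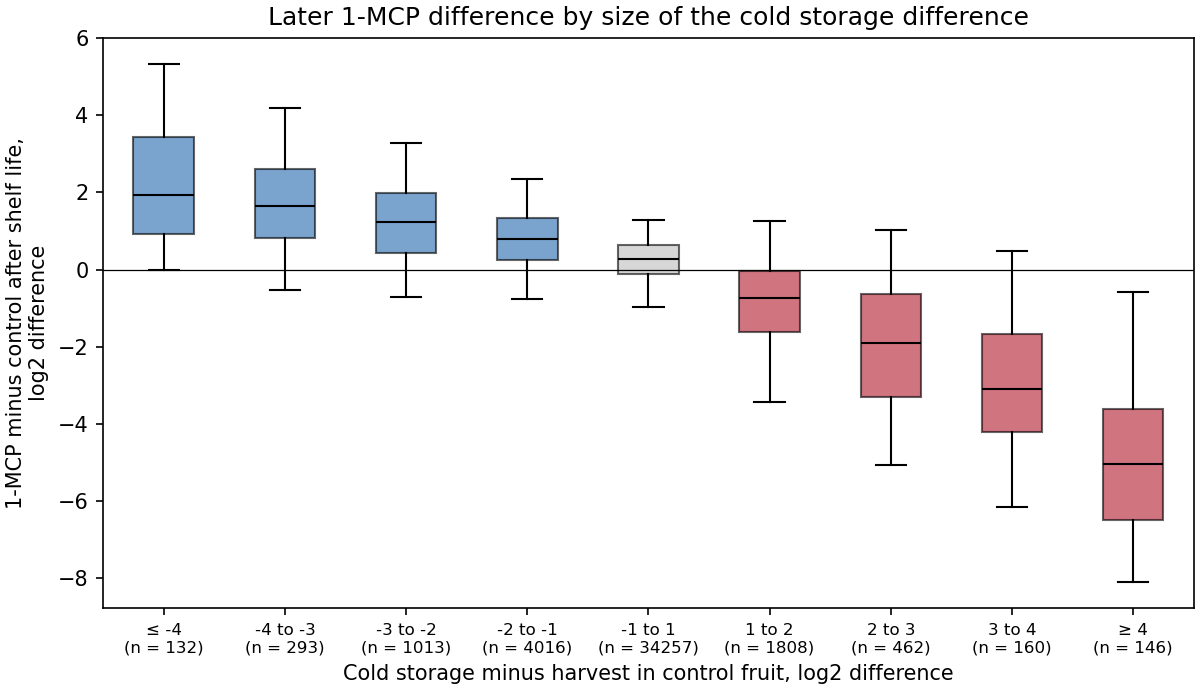
Boxes show the quartiles and median, and whiskers the 5th to 95th percentile, of the log2 difference of 1-MCP minus control fruit after shelf life, for loci binned by their log2 difference of cold storage minus harvest in control fruit. The medians run from 1.94 in the bin of -4 or less, through 0.26 in the middle bin, to -5.04 in the bin of 4 or more.

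The 1-MCP difference after shelf life was also read for each kind of locus, beside all loci of that kind. Among higher gene models without an assembled locus 527 of 790 (66.7%) were lower with 1-MCP, where 17.1% of all loci of the kind were. Among higher assembled loci with a gene model 582 of 1210 (48.1%) were, against 5.85% of the kind. Higher unannotated loci, which are assembled loci without a gene model, had 202 of 576 (35.1%) lower with 1-MCP, against 4.78% of the kind, and 83 higher. The kind with the largest share thus also had the largest background, and no order among kinds is read from these shares. The medians of the higher loci were -1.88, -0.95 and -0.52 in the same order, beside 0.16, 0.24 and 0.42 over all loci of each kind. The 3 medians of the lower loci lay closer together, at 0.91, 0.92 and 0.85.

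Shelf life in 1-MCP fruit, from the end of cold storage to 7 days later, is the other comparison that shares no column with the choice of loci. Of the loci higher after cold storage in control fruit, 359 (13.9%) were lower after shelf life in 1-MCP fruit and 134 (5.20%) higher. For all loci these shares were 4.22% and 2.10%, together 6.32%. Of the lower loci 444 (8.14%) were lower and 363 (6.66%) higher. With 75th percentile scaling the lower loci were split into 324 lower and 425 higher, so that balance turned, and all loci into 1432 lower and 1129 higher, against 1783 and 889 as deposited. Both sets thus held more loci past the size rule than the table as a whole, in each direction. The median shelf-life difference in 1-MCP fruit was -0.24 for the higher loci, -0.05 for the lower loci and -0.12 for all loci.

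The kinds of locus also differed in the cold storage comparison itself, though the differences between kinds were not tested. Gene models without an assembled locus were past the size rule most often, at 2185 of 6801 (32.1%), 790 of them higher and 1395 lower. Their 5th and 95th percentiles were -2.38 and 1.89. Assembled loci with a gene model were past it at 3601 of 23509 (15.3%), with 1210 higher and 2391 lower and percentiles of -1.48 and 1.02. Unannotated loci were past it at 2244 of 11977 (18.7%), of which 576 were higher and 1668 lower. Scaled by the 75th percentile, the splits were 912 higher and 1218 lower, 1571 and 1889, and 718 and 1284 in the same order. The unannotated loci had the lowest median, -0.23, and it stayed below 0 under each scaling (-0.10 with 75th percentile scaling). For assembled loci with a gene model the median was -0.11 as deposited and 0.03 with 75th percentile scaling, so their direction turned.

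Assembled loci that carry several gene models, 531 in all, had 46 higher and 70 lower loci (21.8% past the size rule). Those with a single model had 1164 higher and 2321 lower among 22978 (15.2%). The scaled splits were 56 higher and 54 lower with several models, and 1515 and 1835 with a single one. Their medians were alike, at -0.10 and -0.11.

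Level was first read as the mean of the 3 groups outside the comparison. One of these, control fruit after shelf life, kept most of the cold storage difference in the profiles above, so this level is set in part by the difference itself. It was therefore also read from the 1-MCP groups alone, a choice made after the values were seen. By the mean of the 3 groups 4.49% of loci were higher at 1 to 3 FPKM, 6.10% at 10 to 30, 9.57% at 100 to 300 and 18.0% at 1000 FPKM or more. By the 1-MCP groups these shares were 5.21%, 5.19%, 6.22% and 10.3%, a smaller spread between low and high levels. The 1-MCP level is not free of the difference either, since 50.9% of the higher loci were lower with 1-MCP after shelf life. The smaller spread is therefore not credited to leaving out the control column. Lower loci made up 12.6% at 1 to 3 FPKM, 11.3% at 10 to 30, 14.1% at 100 to 300 and 17.2% at 1000 or more by the 3 groups, and 12.3%, 11.9%, 16.9% and 21.8% by the 1-MCP groups.

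The balance at the top also turned with this choice. At 1000 FPKM or more there were 46 higher and 44 lower among 256 loci by the 3 groups (55 and 33 with 75th percentile scaling), and 26 higher and 55 lower among 252 loci by the 1-MCP groups. Under 1 FPKM, where loci pass the filter only through the columns that did not set the level, 89 were higher and 306 lower among 906 loci by the 3 groups. By the 1-MCP groups 440 were higher and 254 lower among 1480 loci. No relation between level and direction is therefore read for higher loci.

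Kinds of locus kept some differences under both readings of level. From 3 to 100 FPKM, gene models without an assembled locus had a larger share of higher loci than either other kind, at 11.4% to 12.9% by the 3 groups and 7.44% to 9.24% by the 1-MCP groups. Unannotated loci had 14.6% lower at 10 to 30 FPKM, 21.9% at 100 to 300 and 26.6% at 300 to 1000 FPKM by the 3 groups, and 15.4%, 24.3% and 24.5% by the 1-MCP groups. In the same 3 bins assembled loci with a gene model had 8.54%, 9.58% and 13.7% lower by the 3 groups, and 8.92%, 12.1% and 16.2% by the 1-MCP groups. At 10 to 30 FPKM gene models without an assembled locus were lower more often than both, at 18.3% by the 3 groups and 19.8% by the 1-MCP groups.

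**Figure D5:**
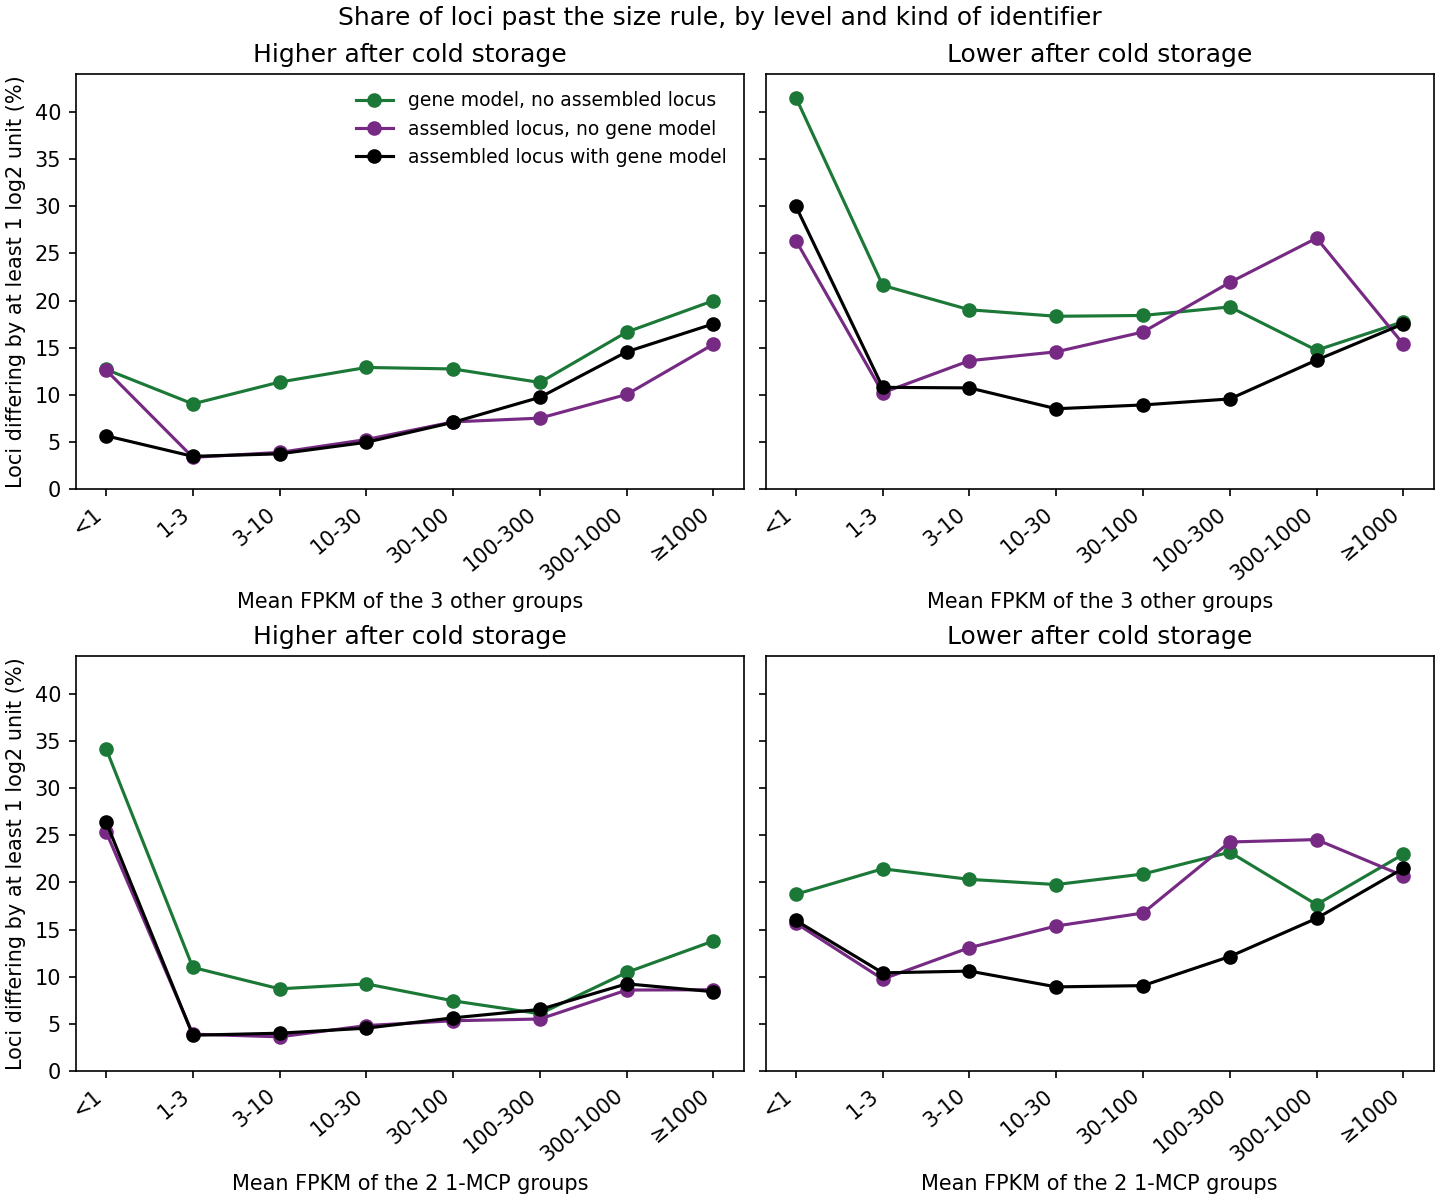
The percentage of loci higher (left) and lower (right) by at least 1 log2 unit after cold storage is plotted against the mean FPKM of the 3 groups outside the comparison (top) or of the 1-MCP groups alone (bottom), for gene models without an assembled locus (green), unannotated assembled loci (purple) and assembled loci with a gene model (black). At 1000 FPKM or more the 3 kinds have 15.4% to 20.0% of loci higher in the top row and 8.41% to 13.8% in the bottom row.

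The loci past the size rule held a sizeable part of the summed FPKM. Higher loci took 19.6% of the sum over analysed loci in stored control fruit and 4.33% at harvest. Lower loci took 8.71% in stored control fruit and 27.3% at harvest. These shares follow in part from the choice of the loci. In the columns that did not choose them, higher loci held 22.6% with shelf life in control fruit, and with 1-MCP 8.50% after cold storage and 6.94% after shelf life. Lower loci held 11.6% in the same control column, and 19.1% and 21.8% in the 1-MCP columns. A single locus weighed on the lower set. It is the most abundant analysed locus at harvest, an assembled locus with a gene model, which stood at 61510 FPKM in stored control fruit and 184965 FPKM at harvest. Without it the lower loci held 6.23% in stored control fruit and 21.6% at harvest. The same locus had 100555 FPKM with shelf life in control fruit, and 142731 and 178070 FPKM with 1-MCP.

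On the side of gains, an unannotated locus added the most among analysed loci, with 64284 FPKM in stored control fruit and 12525 FPKM at harvest. This ranking leaves out loci listed at 0, among them a gene model at 81035 FPKM in stored control fruit and 0 at harvest. The unannotated locus held 59889 FPKM with shelf life in control fruit, and with 1-MCP 51341 FPKM after cold storage and 25261 FPKM after shelf life. Unlike the loci with the largest ratios, it was thus also high with 1-MCP when cold storage ended. The gene model at rank 7 by gain was at 6718 FPKM in stored control fruit and 50.1 FPKM at harvest. With shelf life control fruit had 17240 FPKM, while the 1-MCP values were 785 FPKM after cold storage and 61.1 FPKM after shelf life. Over analysed loci, the 10 largest gains made up 27.5% of all gains in FPKM, and the 10 largest losses 27.5% of all losses.

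Among analysed loci, membership of the most abundant shifted below the very top. Loci listed at 0 are left out here, among them a gene model at 81035 FPKM in stored control fruit and 0 at harvest. That gene model held 3.23% of the summed FPKM of the whole table in stored control fruit. It would be among the 10 of stored control fruit but not among the 10 of harvest. Of the 10 most abundant analysed loci 9 were the same in stored control fruit and at harvest. Of the 100 most abundant 62 were in both lists, and of the 1000 most abundant 715 were. Among the 100 of stored control fruit 33 were higher than at harvest and 6 lower, and among the 100 of harvest 6 were higher after storage and 34 lower. Each list was picked on a column of the comparison, which favours these directions, so nothing is read from them beside the 6.09% and 12.9% of all loci. The 100 held 37.3% of the summed FPKM in stored control fruit and 37.2% at harvest, so the concentration was nearly the same among analysed loci.

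The thresholds did not sit at a break in the data. Loci with a mean of 0.9 to 1 FPKM, just outside, numbered 708, of which 22 were higher and 77 lower. Loci with a mean of 1 to 1.1 FPKM, just inside, numbered 689, of which 20 were higher and 58 lower. Just under the size rule lay 433 loci with differences of 0.9 to 1 and 853 with differences of -1 to -0.9, and just past it 326 with 1 to 1.1 and 757 with -1.1 to -1.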

How the data were processed

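Reads of 100 bp came from an Illumina HiSeq 1000 and from TruSeq libraries that do not keep the strand, per the labels' protocols, so antisense transcription cannot be separated from its gene. TopHat2, Cufflinks and Cuffdiff are listed per the submitters' processing notes. Tool versions, genome build and scaling between libraries: not given in the sources used here. The deposited FPKM values, with decimal commas, come as 1 column per group per the file headers, which do not say how the 3 libraries of a group enter it. The libraries' depth is unknown. Among 4436 loci below 0.15 FPKM in both columns compared, the most frequent ratio between them, 1.607 to 3 decimals, was held by 53. Whether this reflects a step per read was not tested.

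Differences of log2(FPKM + 1) were computed with Python 3.11.15 and pandas 2.3.3, after a check on simulated data. Scaling used the 75th percentile, a trimmed mean of log ratios (30% at each end) or quantiles over the analysed loci. Loci named by identifier are the 2 largest differences in each direction that reach 5 FPKM in either column, and others are given by rank. The planned lists of pathway genes could not be filled, and limma needs values per library. The comparison, the size rule and the sets were chosen with earlier results of these data known.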

Additional observations from a re-analysis of the deposited data

How the results depend on the processing

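No paired analysis was possible because each group has a single FPKM column, and for the same reason no replicate could be left out. Across the alternatives 197 counts and shares were recomputed, and 157 of them stayed within 1.5 times the reported value. A pseudocount of 5, which shrinks differences of loci at low FPKM by construction, gave 4468 loci past the size rule in place of 8030 (1547 higher in place of 2576, 2921 lower in place of 5454). By kind it gave 2088 assembled loci with a gene model, 1053 unannotated loci and 1327 gene models without an assembled locus, and past 4 units 72 higher and 45 lower. The loci opposed by 1-MCP after shelf life were then 818 (higher set) and 1103 (lower set), and those lower with shelf life in 1-MCP fruit 145 and 211. A pseudocount of 0.1 gave 294 higher and 341 lower loci past 4 units, 3841 lower loci that were higher with 1-MCP in place of 2454, and 704 and 779 lower with shelf life in 1-MCP fruit in place of 359 and 444. A minimum difference of 2 in both comparisons gave 2206 loci (768 higher, 1438 lower), by kind 916, 475 and 815 in the order above, opposed by 1-MCP 458 and 439, lower with shelf life 60 and 49, and at 1000 FPKM or more 24 higher and 15 lower in place of 46 and 44. Higher loci then held 10.2% of summed FPKM in stored control fruit and 1.20% at harvest, and lower loci 1.09% and 7.94%. A mean of at least 5 FPKM left 3595 lower loci, 1438 unannotated loci and 1396 gene models without an assembled locus, since fewer loci enter. With loci listed at 0 kept, 201 were lower by at least 4 units. Higher loci held 6.59% at harvest with 75th percentile scaling and 6.77% with trimmed mean scaling, in place of 4.33%, and the cause was not tested. With level read from the 1-MCP columns alone, added after the data were seen, 26 loci at 1000 FPKM or more were higher. Keeping only loci with a gene model, or counting loci with the same 5 values once, was also added then, and under both every recomputed value stayed within 1.5 times. Of 20 values of named loci 5 moved by more than 1.5-fold, each time with a pseudocount other than 1, and none of the 4 loci turned direction. Without depth, no precision can be given for low FPKM.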

Other observations

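A further 842 loci reached a mean of 1 FPKM but were listed at 0 in some group, and were set apart because a listed 0 may be an estimate that failed. Of these, 170 were above 0 in stored control fruit and listed at 0 at harvest, and 193 were listed at 0 in stored control fruit and above 0 at harvest. Gene models without an assembled locus made up 83 of the 170 and 98 of the 193, and unannotated loci 72 and 84. These kinds are 6801 and 11977 of the 42287 analysed loci, and 31957 and 18126 of all 80965 loci. In the first set 14 loci reached 100 FPKM in stored control fruit, and in the second 12 reached it at harvest.

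One of the 170 was the most abundant gene model of the whole table in stored control fruit, at 81035 FPKM, or 3.23% of the summed FPKM there, and it was listed at 0 at harvest. It was at 14879 FPKM in control fruit after shelf life, and at 99072 and 120570 FPKM in 1-MCP fruit after cold storage and after shelf life. Among the 193, a gene model at 2760 FPKM at harvest was listed at 0 in all 4 stored groups. These loci were singled out after their values were seen, and whether a 0 stands for absence cannot be read from the table.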
